A study of Mus musculus with 12 samples.

Results

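Mammary tumours grown from p66High parental cells were compared with mammary tumours grown from p66Low parental cells. The labels' genotype and phenotype gave 3 tumours for each group, so that 6 of the 12 tumours of the series were compared, across all genes. NIC cells are a mouse breast cancer population that is positive for ErbB2, a receptor tyrosine kinase, and that lacks p66ShcA. p66High cells carry constitutive overexpression of p66ShcA on this background, whereas p66Low cells do not. Both populations were injected into female FVB/N mice aged 8 to 12 weeks, with 250000 cells per mouse placed in the fourth mammary fat pad, and bulk tumour RNA was sequenced. The other 6 tumours, 3 p66High aggressive and 3 p66Low aggressive, came from the same populations after 2 rounds of selection in vivo and serve here as a second set of tumours. The labels do not state whether p66High is 1 clone, what the construct's promoter is, or whether each tumour came from its own mouse; the titles of p66High parental tumours 1 and 2 carry the same number. Any difference between the lines that arose during their making is carried by all 3 tumours of a group, so it and the effect of p66ShcA cannot be told apart.

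p66ShcA is the longest product of Shc1. The shorter Shc1 products are adaptors that couple receptor tyrosine kinases such as ErbB2 to RAS and ERK signalling, whereas p66ShcA is known as a weak or opposing partner in that pathway and as a mitochondrial redox protein linked to oxidative stress. ShcA proteins have also been tied to the balance between glycolysis and oxidative metabolism. Gene counts pool all of these products.

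Shc1 (ENSMUSG00000042626, mm10 chromosome 3, 89418443 to 89430027) was at 271, 234 and 223 CPM, counts scaled to the depth of each library, in the p66High tumours, against 65.0, 59.0 and 69.4 CPM in the p66Low tumours. The groups did not overlap, and the log2 fold change was 1.91 with a standard error of 0.37 and an adjusted p of 0.0088 by edgeR's quasi-likelihood test with Benjamini-Hochberg adjustment, the test behind every adjusted p below. Erbb2 (ENSMUSG00000062312, mm10 chromosome 11, 98412470 to 98437716) was at 73.5, 61.9 and 63.1 CPM in p66High tumours and 54.9, 89.6 and 57.6 CPM in p66Low tumours, with overlapping groups (log2 fold change -0.02, adjusted p = 0.954). Epithelial genes were abundant in every tumour, as in a mammary tumour: Epcam, an epithelial surface protein, lay between 574 and 726 CPM in p66High tumours and between 600 and 776 CPM in p66Low tumours, and none of the 12 epithelial markers passed the test.

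The libraries held 43458768, 29393253 and 76103880 counts in p66High tumours 1, 2 and 3, and 38602915, 25791485 and 38680379 counts in p66Low tumours 1, 2 and 3. p66High tumour 3 stood apart in lymphoid genes: 11 lymph node stroma markers summed to 14.2, 9.57 and 79.7 CPM in p66High tumours, against 7.43, 5.03 and 9.88 CPM in p66Low tumours. B cell markers summed to 45.2 CPM in p66High tumour 3 and to between 1.66 and 3.61 CPM in the other 5. p66Low tumour 2 stood apart in another way, in that 1927 genes passed without it, the most of the 6 fits that each left out 1 tumour. In bulk tumours, fewer cells of a type and less RNA per cell cannot be told apart.

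Of 19370 genes tested, 1565 passed an adjusted p of 0.05 (8.08%): 770 were higher in p66High tumours (3.98%) and 795 were lower (4.1%). Each count of list members below is to be read beside these shares, since no list was tested as a set. Of the 1565 genes, 614 differed by at least 2-fold, 238 of them higher and 376 lower. The groups did not overlap for 1560 of the 1565 genes, a property that 29.9% of all tested genes shared. Without p66High tumour 1 or 3 the count was 892 or 960, and without p66Low tumour 1 or 3 it was 889 or 871; 667 of the 1565 genes (42.6%) passed in all 6 fits. For any gene below whose call ended when a tumour was left out, that tumour is named with it. Among the genes that passed, p66High tumours had less RNA of glycolytic enzymes, of Car9 and of Cdkn1a, more RNA of claudins, of IGF pathway genes and of acute phase genes, and a shift along chromosomes 1, 15 and the end of chromosome 4.

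**Figure D1:**
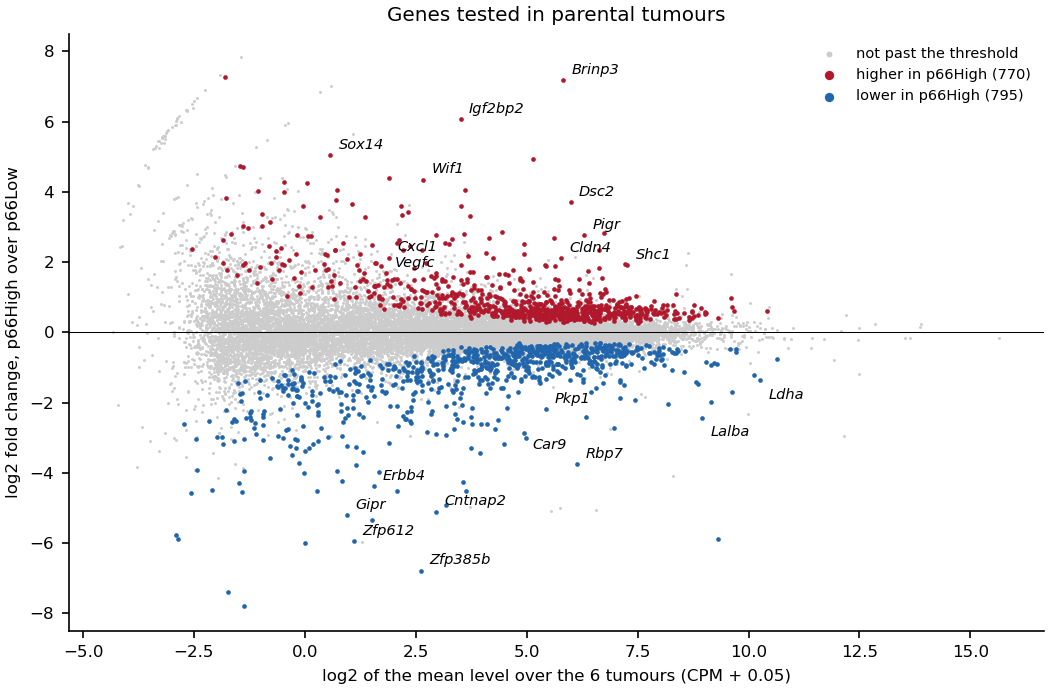
Each point is a gene, with its mean level over the 6 parental tumours (log2 CPM, horizontal) and its log2 fold change, p66High over p66Low (vertical); genes past the adjusted p threshold are coloured. Of the calls, 770 lie above 0 and 795 below it, and the labelled genes are among those described.

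Transcripts of glycolysis, the cytosolic pathway that turns glucose into pyruvate and lactate, were less abundant in p66High tumours. Of 19 glycolytic enzyme genes tested, 9 fell and none rose, against 4.1% of all tested genes that fell; the median log2 fold change of the 19 was -0.87, against -0.01 over all genes. The 3 p66High tumours lay below the 3 p66Low tumours for 17 of the 19. Over all tested genes, 29.9% did not overlap in either direction. Summed over the list, glycolytic transcripts stood at 4945, 5349 and 4986 CPM in p66High tumours, against 10530, 8565 and 9685 CPM in p66Low tumours. The call held in all 6 fits with a tumour left out for Ldha, Eno1, Hk1 and Pfkl. The count was 5 without p66High tumour 1, p66Low tumour 1 or p66Low tumour 3 and 4 without p66High tumour 3, and it was 15 in a fit of the 6 parental tumours alone, where the spread is not shared with the aggressive tumours.

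At the entry of the pathway, Hk1, which phosphorylates glucose, was at 415, 304 and 451 CPM in p66High tumours, against 861, 618 and 757 CPM in p66Low tumours. No values overlapped, and Hk1 fell by 0.93 on the log2 scale (SE 0.17, adjusted p = 0.00582). Hk2, the inducible hexokinase, was at 47.0, 38.4 and 52.5 CPM in p66High tumours and 135, 78.3 and 128 CPM in p66Low tumours, also without overlap, but its adjusted p was 0.0539. Of the phosphofructokinases, which catalyse the committed step, Pfkl stood at 384, 490 and 397 CPM in p66High tumours and 805, 738 and 778 CPM in p66Low tumours, and fell by 0.87 (SE 0.17, adjusted p = 0.0084). Pfkp stood at 238, 259 and 197 CPM in p66High tumours and 587, 486 and 462 CPM in p66Low tumours, and fell by 1.14 (SE 0.24, adjusted p = 0.0127, or 0.0522 without p66High tumour 3). Pfkm had a log2 fold change of -0.47 (adjusted p = 0.0767). Aldoa, the main aldolase, was at 746, 804 and 671 CPM in p66High tumours and 1374, 1484 and 1185 CPM in p66Low tumours, apart in every tumour with an adjusted p of 0.0666.

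In the lower steps, the enolase Eno1 was at 68.0, 39.3 and 68.5 CPM in p66High tumours, against 249, 162 and 237 CPM in p66Low tumours. No p66High tumour reached the lowest p66Low tumour, and Eno1 fell by 1.88 on the log2 scale (SE 0.33, adjusted p = 0.0055). Ldha, the lactate dehydrogenase subunit that favours lactate formation, was at 720, 651 and 704 CPM in p66High tumours and 2086, 1437 and 1802 CPM in p66Low tumours. It fell by 1.36 (SE 0.17, adjusted p = 0.0011), with all p66High tumours below all p66Low tumours. Ldhb, the other subunit, was at 83.2, 86.9 and 92.9 CPM in p66High tumours and 90.4, 97.5 and 90.2 CPM in p66Low tumours, which overlapped (log2 fold change -0.08, adjusted p = 0.747).

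The calls of Pgk1, Tpi1, Gapdh and Pkm were lost in several of the fits with a tumour left out, although their log2 fold changes stayed between -1.56 and -1.32 for Pgk1, -0.99 and -0.76 for Tpi1, -1.54 and -1.18 for Gapdh, and -0.85 and -0.68 for Pkm. Pgk1, which makes ATP from bisphosphoglycerate, was at 39.8, 48.5 and 38.7 CPM in p66High tumours and 124, 87.8 and 126 CPM in p66Low tumours, apart in every tumour (log2 fold change -1.41, SE 0.31, adjusted p = 0.0157). Its adjusted p, and that of Tpi1, the triose isomerase (-0.85, 0.03), passed 0.05 without p66High tumour 1 or 3 or p66Low tumour 1 or 3, up to 0.0659 for Pgk1 and 0.108 for Tpi1. Gapdh (-1.34, adjusted p = 0.0362) and the pyruvate kinase gene Pkm (-0.75, adjusted p = 0.0496) lost the call without any tumour but p66Low tumour 2, up to 0.121 and 0.159. Gapdh, Eno1 and Pgk1 have near-identical copies elsewhere in the genome, and the treatment of reads that match several places is not given in the sources used here, so their levels are uncertain.

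**Figure D2:**
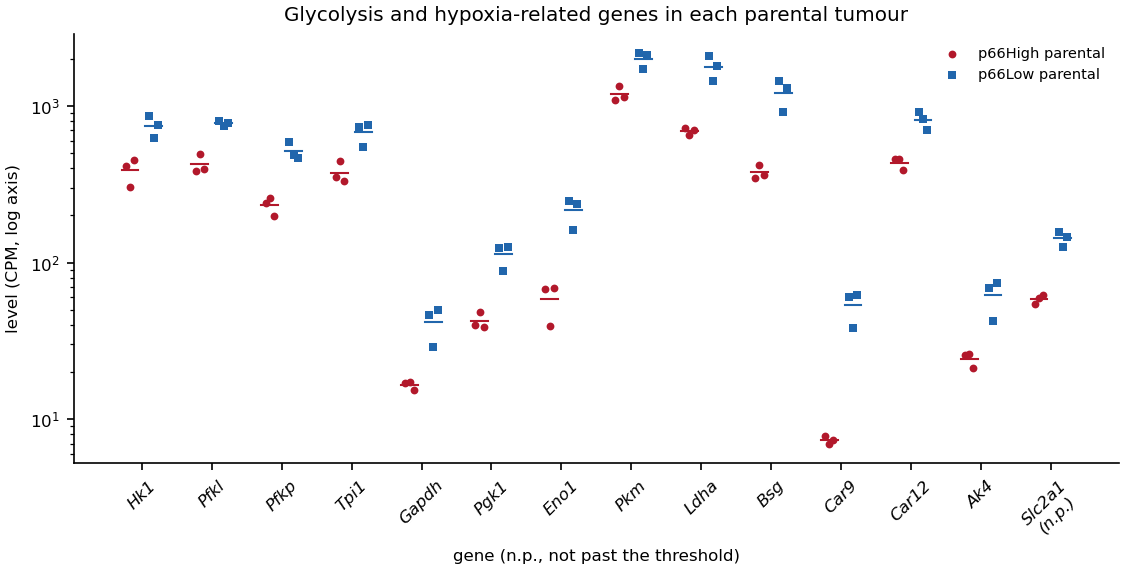
Levels in CPM (vertical, log axis) of 14 glycolysis and hypoxia-related genes (horizontal) in each parental tumour, with circles for p66High, squares for p66Low and a line at each group's mean. In every gene shown, all 3 p66High tumours lie below all 3 p66Low tumours; Slc2a1 did not pass the test.

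Promoters of Ldha and Pgk1 are shown because both genes fell and are textbook targets of the hypoxia-inducible factors, whose core site is read here as ACGTG or GCGTG on either strand. The sequences are the 250 bases before a RefSeq transcription start on the + strand, GRCm38.p6 (the assembly of mm10), at chr7:46845554-46845803 for Ldha and chrX:106186850-106187099 for Pgk1. Capitals mark each match, and the palindrome CACGTG counts once on each strand.
Ldha: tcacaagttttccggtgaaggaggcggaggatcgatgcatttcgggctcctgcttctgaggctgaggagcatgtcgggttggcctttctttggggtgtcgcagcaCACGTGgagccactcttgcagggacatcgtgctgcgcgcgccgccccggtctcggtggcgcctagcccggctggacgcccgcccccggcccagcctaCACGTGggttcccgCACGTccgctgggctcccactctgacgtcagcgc
Pgk1: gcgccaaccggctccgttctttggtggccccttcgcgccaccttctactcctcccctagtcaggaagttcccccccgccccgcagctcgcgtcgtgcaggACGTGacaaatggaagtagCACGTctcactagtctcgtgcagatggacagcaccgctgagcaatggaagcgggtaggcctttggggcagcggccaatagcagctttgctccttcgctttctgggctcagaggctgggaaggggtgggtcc
The Ldha window holds 5 matches and the Pgk1 window 2. In windows of 300 bases around each RefSeq start, 10 of 12 genes searched (the 9 glycolytic genes that fell, Car9, Car12 and Ak4) had a match in at least 1 promoter, against 46.7% of all genes. Over single promoters, 16 of the 20 of these genes hold a match, in windows that partly overlap, against 43.8% of all 32851. The 12 genes came from lists of glycolysis and hypoxia genes, so these shares describe the genes picked and not the tumours. Tpi1 and Car12 had none in their windows. A match describes letters in a sequence and was not tested as a site.

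Of 30 genes that hypoxia raises in many tissues, 3 fell (Car9, Car12 and Ak4) and none rose, against 4.1% of all tested genes that fell. The median log2 fold change of the 30 was -0.89, against -0.01 over all genes. For 22 of the 30, all p66High tumours lay below all p66Low tumours; over all tested genes, 29.9% did not overlap in either direction. In a fit of the 6 parental tumours alone 19 fell, whereas 1 fell without p66High tumour 3 or p66Low tumour 1. The largest fall was that of Car9, a cell surface carbonic anhydrase that acidifies the surroundings of the cell, at 7.80, 6.97 and 7.32 CPM in p66High tumours and 60.2, 38.3 and 62.2 CPM in p66Low tumours (log2 fold change -2.86, SE 0.44, adjusted p = 0.00277). Every p66High tumour lay under every p66Low tumour by a wide margin. Car12, a second surface carbonic anhydrase, fell by 0.90 (adjusted p = 0.0156, lost without p66High tumour 3 or p66Low tumour 1, up to 0.0598). Ak4, an adenylate kinase of mitochondria, fell by 1.34 (adjusted p = 0.0474, lost without any tumour but p66Low tumour 2, up to 0.150). In the carbonic anhydrase family, Car8, a member without the enzyme activity, went the other way, at 48.4, 41.4 and 24.4 CPM in p66High tumours and 1.46, 10.3 and 4.47 CPM in p66Low tumours (log2 fold change 2.85, adjusted p = 0.0106, or 0.0541 without p66Low tumour 3, and a log2 fold change of 3.68 without p66Low tumour 2).

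Several of the best known members had large differences that did not pass. Ndrg1, a stress-induced gene, was at 31.4, 28.8 and 31.3 CPM in p66High tumours and 238, 124 and 253 CPM in p66Low tumours (log2 fold change -2.75, SE 0.80, adjusted p = 0.0582). Vegfa, the main angiogenic growth factor, was at 92.4, 86.4 and 85.8 CPM in p66High tumours and 330, 198 and 359 CPM in p66Low tumours (log2 fold change -1.75, SE 0.59, adjusted p = 0.0971). In both, the p66High tumours were close together and p66Low tumour 2 lay lowest of its group. Slc2a1, the main glucose transporter, had a log2 fold change of -1.28 (adjusted p = 0.0665), and none of 10 glucose and lactate transporter genes passed. Bsg, the chaperone that carries lactate transporters to the membrane, was at 345, 421 and 361 CPM in p66High tumours and 1428, 906 and 1303 CPM in p66Low tumours, and fell by 1.69 (SE 0.36, adjusted p = 0.0148, lost without p66High tumour 1 or 3 or p66Low tumour 1, up to 0.0646). None of 9 genes of the hypoxia factors and their oxygen sensors passed, and Hif1a itself, the oxygen-regulated factor, was at 173, 174 and 184 CPM in p66High tumours and 198, 199 and 242 CPM in p66Low tumours (adjusted p = 0.127).

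The routes beside glycolysis moved in single genes. Of 17 genes of glycogen and the pentose phosphate pathway, Rpe rose and Pgd and Pgm2 fell. Pgd, which makes NADPH in the pentose phosphate pathway, was at 69.2, 32.8 and 67.8 CPM in p66High tumours and 154, 156 and 153 CPM in p66Low tumours, with no overlap (log2 fold change -1.44, SE 0.21, adjusted p = 0.00223). Pgm2 fell by 1.08 (adjusted p = 0.03, lost without any tumour but p66Low tumour 2, up to 0.106). Pfkfb2, which makes an activator of phosphofructokinase, was higher at 178, 186 and 165 CPM in p66High tumours, against 110, 117 and 101 CPM in p66Low tumours (log2 fold change 0.69, adjusted p = 0.0031). Fbp1, an enzyme of gluconeogenesis, rose by 1.47 (adjusted p = 0.0385, lost without any tumour but p66Low tumour 2, up to 0.149, with a log2 fold change of 2.09 without that tumour).

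Respiratory chain genes, which encode the mitochondrial machinery of oxidative phosphorylation, rose in a few cases that lay mostly on 1 chromosome. Of 75 nuclear subunit genes tested, 7 rose and none fell, against 3.98% of all tested genes that rose and 4.1% that fell. All 6 of those on chromosome 1 rose, with a median log2 fold change of 0.63, against 1 of the 69 elsewhere, with a median of 0.03. Ndufa10 of complex I was at 120, 132 and 125 CPM in p66High tumours and 83.4, 74.4 and 78.2 CPM in p66Low tumours (log2 fold change 0.68, adjusted p = 0.000633). Ndufs1 and Ndufb3 of complex I, Sdhc of complex II and Cox5b of complex IV were others on chromosome 1, with log2 fold changes of 0.54 to 0.67. The call of Ndufb3 was lost without p66High tumour 2 or p66Low tumour 2 or 3 (adjusted p up to 0.0847) and that of Cox5b without p66Low tumour 3 (0.0627), with log2 fold changes of 0.44 to 0.72 for Ndufb3 and 0.45 to 0.71 for Cox5b over the 6 fits.

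The exception off chromosome 1 was Atp5a1, a subunit of ATP synthase, at 1536, 1869 and 1575 CPM in p66High tumours and 1181, 1001 and 1073 CPM in p66Low tumours. The groups did not overlap (log2 fold change 0.61, SE 0.11, adjusted p = 0.00483). None of the 13 genes of the mitochondrial genome passed, and their median log2 fold change was -0.20. Of 23 genes listed for the citric acid cycle, 3 rose, all on chromosome 1, and none fell, against 3.98% of all tested genes that rose. The genes that rose include Idh1 (0.69, adjusted p = 0.0117, or 0.0525 at most without p66Low tumour 1 or 3). Ppargc1a, a coactivator that drives mitochondrial biogenesis, was at 16.8, 12.7 and 16.9 CPM in p66High tumours and 12.3, 7.83 and 7.75 CPM in p66Low tumours (log2 fold change 0.73, adjusted p = 0.0482, lost without p66High tumour 1 or 3 or p66Low tumour 2 or 3, up to 0.166). Of the other genes of mitochondrial biogenesis, Tfb2m, a mitochondrial transcription factor on chromosome 1, rose by 0.72 (adjusted p = 0.0117, up to 0.0554 without p66High tumour 1 or p66Low tumour 1), and Polrmt, the mitochondrial RNA polymerase, fell by 0.40 (adjusted p = 0.0357, lost without any tumour but p66Low tumour 2, up to 0.146).

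Antioxidant genes changed in a single case. None of 16 NRF2 targets passed, and their median log2 fold change was -0.15. Of 25 antioxidant enzymes, Prdx6, a peroxiredoxin gene on chromosome 1, alone rose, at 159, 192 and 170 CPM in p66High tumours and 129, 107 and 117 CPM in p66Low tumours (log2 fold change 0.56, adjusted p = 0.00819).

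Among p53 target genes, 3 of 26 fell and none rose, against 4.1% of all tested genes that fell and 3.98% that rose. Cdkn1a, the gene of the cyclin kinase inhibitor p21, was at 16.1, 8.83 and 14.4 CPM in p66High tumours and 34.1, 56.0 and 37.6 CPM in p66Low tumours. With no overlap, Cdkn1a fell by 1.70 on the log2 scale (SE 0.32, adjusted p = 0.00758). Perp, a desmosomal p53 target, fell by 0.63 (adjusted p = 0.00939), and Polk, a DNA polymerase of damage tolerance, by 0.45 (adjusted p = 0.0225, up to 0.0684 without any 1 of the p66High tumours). Mdm4, an inhibitor of p53 encoded on chromosome 1, was at 151, 135 and 146 CPM in p66High tumours and 74.3, 103 and 88.5 CPM in p66Low tumours, and rose by 0.71 (adjusted p = 0.0028). Cdkn2b, an inhibitor of cyclin D kinases, rose by 1.08 (adjusted p = 0.0156, lost without p66High tumour 1 or 2 or p66Low tumour 1 or 3, up to 0.068).

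None of 32 cell cycle genes passed, although 29 had negative log2 fold changes, with a median of -0.28. Mki67, the proliferation marker, was at 217, 175 and 211 CPM in p66High tumours and 315, 176 and 332 CPM in p66Low tumours, so that p66Low tumour 2 lay with the p66High tumours (adjusted p = 0.271). Ccnd1, which drives entry into the cycle, was at 514, 344 and 451 CPM in p66High tumours and 670, 654 and 612 CPM in p66Low tumours (log2 fold change -0.57, adjusted p = 0.094).

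Of the 4 ErbB receptor genes, Erbb4 alone changed. Erbb4, a receptor for neuregulins, was at 0.226, 0.387 and 0.210 CPM in p66High tumours and 5.97, 6.13 and 4.58 CPM in p66Low tumours (log2 fold change -4.38, SE 0.65, adjusted p = 0.00223). All 3 p66High tumours lay far below all 3 p66Low tumours. Among 10 ErbB ligand genes, Nrg1, a neuregulin, was at 9.88, 7.25 and 9.61 CPM in p66High tumours and 26.5, 18.3 and 23.3 CPM in p66Low tumours (log2 fold change -1.35, adjusted p = 0.0369, lost without any tumour but p66Low tumour 2, up to 0.132). Feedback genes of the RAS and ERK pathway moved both ways. Dusp5, an ERK phosphatase, rose by 0.68 (adjusted p = 0.0244, lost without p66High tumour 1 or 3 or p66Low tumour 3, up to 0.0907) and Spry1 rose by 0.85 (adjusted p = 0.0289, lost without p66High tumour 1 or 3 or p66Low tumour 1 or 3, up to 0.116), whereas Spry4, another Sprouty inhibitor, fell by 1.07 (adjusted p = 0.0472, lost without p66High tumour 1 or 2 or p66Low tumour 1 or 3, up to 0.162). The other 16 of the 19 genes did not pass.

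Cell junction genes changed by large amounts in both directions: 4 of 30 rose and 2 fell, against 3.98% and 4.1% of all tested genes. Dsc2, a desmosomal cadherin, was at 126, 119 and 108 CPM in p66High tumours and 1.4, 20.9 and 5.59 CPM in p66Low tumours, with no overlap (log2 fold change 3.70, SE 0.65, adjusted p = 0.00517). Its fold change was 5.07 without p66Low tumour 2. Cldn4, a tight junction claudin, was at 81.2, 110 and 72.7 CPM in p66High tumours and 20.5, 28.8 and 12.5 CPM in p66Low tumours (log2 fold change 2.10, SE 0.28, adjusted p = 0.00146). Cldn8, a second claudin, was higher in every p66High tumour as well, at 30.3, 30.4 and 25.1 CPM, against 15, 17.2 and 17.7 CPM in p66Low tumours (log2 fold change 0.78, adjusted p = 0.00452). In contrast Pkp1, a desmosomal plaque protein, was at 22, 12.9 and 12 CPM in p66High tumours and 77.6, 66.6 and 70.3 CPM in p66Low tumours, and fell by 2.19 (SE 0.25, adjusted p = 0.000633). The plaque gene Dsp fell by 1.35 (adjusted p = 0.0437, lost without any tumour but p66High tumour 1, up to 0.155), and with a log2 fold change of -2.0 without that tumour. Cdh3, which encodes P-cadherin, rose by 1.32 (adjusted p = 0.0304, lost without any p66High tumour or p66Low tumour 3, up to 0.107).

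Of 23 genes of epithelial-mesenchymal transition, 3 rose and 1 fell, against 3.98% and 4.1% of all tested genes. Foxc1, a transcription factor of mesenchymal and basal-like cells, was at 169, 182 and 180 CPM in p66High tumours and 111, 129 and 109 CPM in p66Low tumours, without overlap (log2 fold change 0.61, adjusted p = 0.00482). Twist2 rose by 1.54 (adjusted p = 0.0149, or 0.0553 without p66High tumour 3), and the growth factor gene Tgfb2 fell by 0.70 (adjusted p = 0.0186, lost without p66High tumour 2 or 3 or p66Low tumour 1 or 3, up to 0.0707). None of 11 mammary keratin genes passed. Of 12 milk protein genes, Lalba, which encodes a subunit of lactose synthase, alone changed: it was at 132, 146 and 189 CPM in p66High tumours and 1227, 566 and 717 CPM in p66Low tumours, and fell by 2.43 (SE 0.25, adjusted p = 0.000412).

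A few genes of neutrophil attraction and the acute phase rose in p66High tumours. Of 16 neutrophil chemokine and alarmin genes tested, 3 rose and none fell, against 3.98% of all tested genes that rose; the median log2 fold change was 0.82. Cxcl1, a neutrophil chemokine, was at 5.41, 6.30 and 6.29 CPM in p66High tumours and 0.756, 1.95 and 1.46 CPM in p66Low tumours, clearly apart (log2 fold change 2.13, SE 0.30, adjusted p = 0.00194). Cxcl5 rose by 1.41 (adjusted p = 0.033, lost without any tumour but p66High tumour 2, up to 0.114) and the alarmin Il33 by 1.21 (adjusted p = 0.0305, lost without any tumour but p66High tumour 3, up to 0.108). Summed neutrophil markers were low, at 8.73, 16.7 and 13.5 CPM in p66High tumours and 5.70, 6.53 and 4.91 CPM in p66Low tumours; none passed, and their part in the chemokine result was not tested.

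Of 21 acute phase and complement genes, 3 rose and none fell, against 3.98% of all tested genes that rose. Saa2, a serum amyloid A, was at 12.5, 35.1 and 15.9 CPM in p66High tumours and 2.67, 1.62 and 0.910 CPM in p66Low tumours (log2 fold change 3.6, SE 0.57, adjusted p = 0.00298). Its near copy Saa1 rose by 3.31 (adjusted p = 0.023, lost without p66High tumour 2 or any p66Low tumour, up to 0.109), and by 2.62 without p66High tumour 2, the highest tumour for both. Reads of the pair could be split between them. Pigr, the receptor that carries immunoglobulin across epithelia, was at 143, 136 and 128 CPM in p66High tumours and 24, 27.8 and 8.53 CPM in p66Low tumours, and rose by 2.76 (SE 0.49, adjusted p = 0.0057). None of 28 type I interferon response genes passed, with a median of -0.24, and none of 20 NF-kB genes passed, with a median of 0.24. No antigen presentation gene passed either, although all 20 had positive log2 fold changes, with a median of 0.49.

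Growth factor and developmental signalling genes gave some of the widest separations. The IGF list, 16 genes that bind, carry or translate insulin-like growth factors, had 3 that rose, all in each of the 6 fits with a tumour left out. Over all tested genes, 3.98% rose. Igf2bp2, an RNA-binding protein that promotes translation of Igf2 and other mRNAs, was at 26.5, 19.4 and 21.1 CPM in p66High tumours and 0.162, 0.406 and 0.442 CPM in p66Low tumours (log2 fold change 6.06, SE 0.37, adjusted p = 2.26e-05). Igfbp4, a secreted binding protein that restrains IGF, was at 173, 151 and 144 CPM in p66High tumours and 53, 40.7 and 65.2 CPM in p66Low tumours (log2 fold change 1.56, SE 0.20, adjusted p = 0.00119). Igf2r, the receptor that clears Igf2 into lysosomes, was at 1020, 1003 and 927 CPM in p66High tumours and 626, 548 and 609 CPM in p66Low tumours (log2 fold change 0.73, adjusted p = 0.00967). For none of the 3 did the groups overlap.

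Of 18 Wnt targets and secreted Wnt inhibitors, 2 rose. Wif1, which binds Wnt proteins outside the cell, was at 8.86, 13.4 and 13.6 CPM in p66High tumours and 0.0540, 0.731 and 0.988 CPM in p66Low tumours (log2 fold change 4.35, SE 0.64, adjusted p = 0.00223, and 5.06 without p66Low tumour 3). Dkk2 rose by 1.33 (adjusted p = 0.0484), a call lost in each of the 6 fits with a tumour left out (0.0750 to 0.148). Wnt6 was the only one of 13 Wnt ligand genes that rose (log2 fold change 2.74, adjusted p = 0.00708), at 1.62, 2.18 and 1.44 CPM in p66High tumours and 0.270, 0.244 and 0.260 CPM in p66Low tumours. Among Notch genes the ligands moved apart: Dll4 fell by 1.17 (adjusted p = 0.0156, lost without p66High tumour 2 or 3, up to 0.0535), Dll1 fell by 1.21 (adjusted p = 0.0456, lost without any tumour but p66Low tumour 1, up to 0.139) and Jag2 rose by 0.87 (adjusted p = 0.0363, lost without any tumour but p66Low tumour 2, up to 0.146).

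In the VEGF and angiopoietin list, Vegfc, the lymphatic growth factor, was at 5.82, 4.82 and 5.43 CPM in p66High tumours and 1.76, 1.54 and 1.72 CPM in p66Low tumours (log2 fold change 1.68, SE 0.21, adjusted p = 0.001). Angpt1, a ligand that stabilises vessels, rose by 1.88 (adjusted p = 0.0218, lost without p66High tumour 2 or p66Low tumour 3, up to 0.0874). Vegfc, unlike Vegfa, was higher in p66High tumours, and only the Vegfc change passed. Among FGF genes Fgf13, which acts inside cells, fell by 2.12 (adjusted p = 0.00726). Of the Sox factors, Sox10, which marks neural crest cells and some mammary progenitors, was at 80.1, 53.3 and 74.9 CPM in p66High tumours and 156, 118 and 141 CPM in p66Low tumours, and fell by 0.99 (SE 0.16, adjusted p = 0.00375). Sox14 was at 2.82, 1.76 and 3.77 CPM in p66High tumours and 0.108, 0.162 and 0 CPM in p66Low tumours, and rose by 5.04 on the fitted log2 scale (adjusted p = 0.00186), or by 5.64 without p66Low tumour 2 and 4.38 without p66Low tumour 3.

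Extracellular matrix genes changed in few cases. Of 29 collagen genes, Col9a1 rose and Col10a1 fell, so that 6.9% were called, against 8.08% of all genes tested. Col10a1, a collagen of growth plate cartilage, was at 4.51, 5.17 and 4.74 CPM in p66High tumours and 17.9, 22.4 and 12.9 CPM in p66Low tumours, without overlap (log2 fold change -1.88, SE 0.31, adjusted p = 0.00373). Col9a1, another cartilage collagen, rose by 0.98 (adjusted p = 0.0206, lost without p66High tumour 2 or 3 or p66Low tumour 1 or 2, up to 0.0818). Mmp25, a membrane-anchored metalloproteinase, was at 0.429, 0.317 and 0.499 CPM in p66High tumours and 7.86, 1.75 and 3.82 CPM in p66Low tumours, and fell by 3.40 (SE 0.50, adjusted p = 0.00223), with a log2 fold change of -2.72 without p66Low tumour 1. The laminin gene Lamb1 rose by 0.51 (adjusted p = 0.0225, lost without p66High tumour 1 or 2 or p66Low tumour 1, up to 0.103).

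Of 20 genes of the unfolded protein response, Atf6 and Dnajc3 rose. Atf6, a sensor of the endoplasmic reticulum, was at 95.8, 93.9 and 93.8 CPM in p66High tumours and 65.0, 64.8 and 63.0 CPM in p66Low tumours (log2 fold change 0.56, adjusted p = 0.000726). Dnajc3, a chaperone that restrains the kinase PERK, was at 250.2, 258 and 249 CPM in p66High tumours and 186, 165 and 152 CPM in p66Low tumours (log2 fold change 0.59, adjusted p = 0.00423). In lipid metabolism, Acsl3, which activates fatty acids, was at 136, 146 and 125 CPM in p66High tumours and 70.3, 65.5 and 68.1 CPM in p66Low tumours (log2 fold change 1.00, SE 0.12, adjusted p = 0.001). Of 26 cholesterol genes, 2 fell and none rose; Srebf2, a transcription factor that drives cholesterol synthesis, fell by 0.69 (adjusted p = 0.0362, lost without p66High tumour 1 or 2 or p66Low tumour 1 or 3, up to 0.128).

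Other lists held few calls, and those named here were each lost in 3 or more of the 6 fits with a tumour left out, with the same sign in every fit. Asns, which makes asparagine and is an ATF4 target, fell by 0.69 (adjusted p = 0.03, lost without any tumour but p66Low tumour 2, up to 0.0938), the only call among 24 ATF4 genes. Slc11a2, an iron transporter, fell by 0.59 (adjusted p = 0.0309, lost without any tumour but p66Low tumour 2, up to 0.119). Itgb8, an integrin subunit that activates latent TGF-beta, rose by 0.74 (adjusted p = 0.0134, lost without p66High tumour 1 or p66Low tumour 1 or 3, up to 0.0613). Of 24 luminal and hormone receptor genes, Rarb, a retinoic acid receptor, rose by 1.72 (adjusted p = 0.0174, lost without p66High tumour 1 or 3 or p66Low tumour 1 or 3, up to 0.0801) and Tfap2b by 0.73 (adjusted p = 0.0262, lost without the same 4 tumours, up to 0.109). Inhba, which encodes an activin subunit, fell by 1.13 (adjusted p = 0.0418, lost without any tumour but p66Low tumour 1, up to 0.133), the only call among 28 TGF-beta family genes.

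Markers of most other cell types tended to be higher in p66High tumours, but few passed singly. Summed nerve and Schwann cell markers were lower, at 154, 124 and 141 CPM in p66High tumours and 239, 200 and 218 CPM in p66Low tumours. Much of that sum was Sox10, the only 1 of 8 tested markers that passed. Of the 8, 3 had positive and 5 negative log2 fold changes. Summed skeletal muscle markers stood at 6.72, 9.57 and 7.86 CPM in p66High tumours and 11.1, 9.90 and 11.4 CPM in p66Low tumours. Neither the nerve nor the muscle sum overlapped between the groups. Of 7 skeletal muscle markers tested, 3 had positive and 4 negative log2 fold changes, and none passed. Summed NK and cytotoxic markers were at 7.06, 6.61 and 12.1 CPM in p66High tumours and 2.11, 3.73 and 1.51 CPM in p66Low tumours, without overlap, with a median log2 fold change of 1.78 over 12 genes. Ncr1, an NK cell receptor, rose by 3.13 (adjusted p = 0.0147, lost without p66High tumour 3 or p66Low tumour 1 or 3, up to 0.0646) and the granzyme gene Gzma by 2.14 (adjusted p = 0.0318, lost without any tumour but p66High tumour 2, up to 0.113). Xcl1, a chemokine that NK and T cells release, rose by 2.31 (adjusted p = 0.0386, lost without p66High tumour 2 or 3 or p66Low tumour 1 or 3, up to 0.149). None of 18 T cell, 10 B cell or 11 lymph node stroma markers passed, although their medians were 2.67, 4.21 and 3.44; these medians move with p66High tumour 3. Ms4a1, a B cell surface gene, was at 0.113, 0.0704 and 8.5 CPM in p66High tumours and 0, 0.0812 and 0 CPM in p66Low tumours. Endothelial markers summed to 444, 398 and 409 CPM in p66High tumours and 316, 302 and 327 CPM in p66Low tumours, without overlap and with none passing. Adipocyte markers summed to 658, 545 and 265 CPM in p66High tumours and 309, 73.9 and 122 CPM in p66Low tumours, which overlapped. Of 10 pericyte and smooth muscle markers, Lmod1, an actin nucleator of smooth muscle, was at 29.4, 26.6 and 20.5 CPM in p66High tumours and 7.10, 11.8 and 6.91 CPM in p66Low tumours, and rose by 1.57 (SE 0.22, adjusted p = 0.00167); it lies on chromosome 1. Macrophage markers summed to 1235, 1436 and 1032 CPM in p66High tumours and 1099, 1069 and 867 CPM in p66Low tumours, which overlapped. Cd14 alone of 15 rose (1.08, adjusted p = 0.0136, lost without p66High tumour 2 or p66Low tumour 1 or 3, up to 0.0621). Mammary epithelial markers summed to 2876, 3052 and 2642 CPM in p66High tumours and 3626, 3489 and 3137 CPM in p66Low tumours, also without overlap. The part of these differences in the gene results above was not tested.

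**Figure D3:**
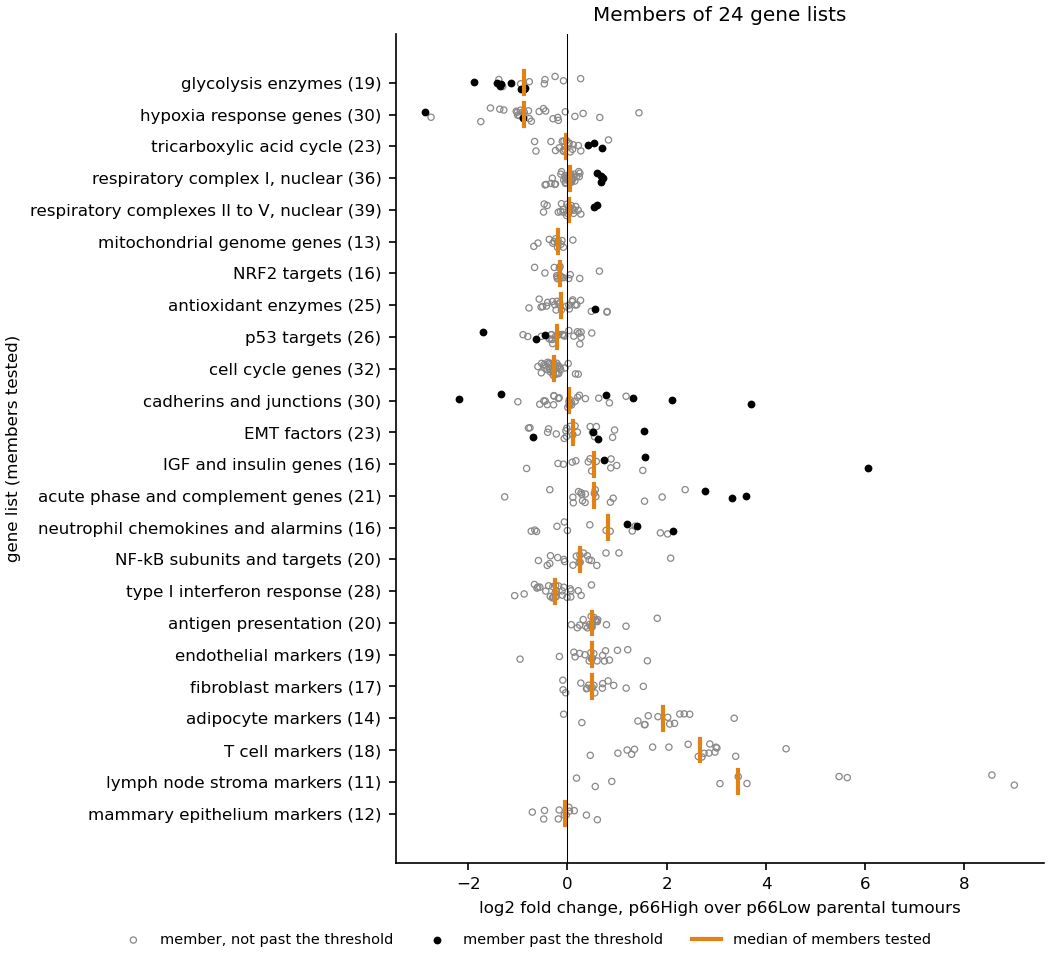
Each row is a gene list, with the log2 fold change (p66High over p66Low, horizontal) of its tested members as points, filled where the member passed the test, and the median as a bar. Glycolysis enzymes, with a median of -0.87, and hypoxia response genes, at -0.89, lie left of 0, and the T cell and lymph node stroma markers, at 2.67 and 3.44, lie furthest right of the 24 lists drawn, with no filled point.

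Some of the widest differences lay outside these lists. Brinp3, a gene otherwise known from the nervous system, was at 116, 129 and 92.4 CPM in p66High tumours and 0.783, 1.5 and 0.208 CPM in p66Low tumours (log2 fold change 7.18, SE 0.43, adjusted p = 2.26e-05, and 7.83 without p66Low tumour 2). Bspry, a gene of epithelia, was at 63.6, 80.8 and 61.6 CPM in p66High tumours and 1.46, 4.83 and 0.780 CPM in p66Low tumours (log2 fold change 4.94, SE 0.48, adjusted p = 0.000278), with a log2 fold change of 5.94 without p66Low tumour 2. Prom1, which encodes the membrane protein CD133, was at 173, 231 and 159 CPM in p66High tumours and 46.8, 18.4 and 13.7 CPM in p66Low tumours (log2 fold change 2.83, adjusted p = 0.00271, and 3.56 without p66Low tumour 1). In each, the groups lay far apart. Fermt1, an integrin activator of epithelia, rose by 4.04 (adjusted p = 0.00549) and by 4.97 without p66Low tumour 2. Other genes with wide rises were Trpm6, a magnesium channel, at 4.58, 9.89 and 6.42 CPM in p66High tumours and 0.324, 0.406 and 0.260 CPM in p66Low tumours (log2 fold change 4.40, adjusted p = 0.00325), and Sftpd, surfactant protein D, at 3.20, 5.38 and 2.77 CPM in p66High tumours and 0.540, 0.244 and 0.104 CPM in p66Low tumours (log2 fold change 3.65, adjusted p = 0.00121, and 4.50 without p66Low tumour 1). St8sia1, which makes the ganglioside GD3, was at 6.07, 8.87 and 12.3 CPM in p66High tumours and 0.756, 1.22 and 0.624 CPM in p66Low tumours (log2 fold change 3.42, adjusted p = 0.00164). Every p66High tumour exceeded every p66Low tumour in all 3 genes.

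At the other end, Zfp385b, a zinc finger gene, was at 0.0677, 0.211 and 0.0787 CPM in p66High tumours and 17.3, 7.18 and 11.7 CPM in p66Low tumours (log2 fold change -6.79, SE 0.59, adjusted p = 0.000151). Ranbp17, related to nuclear transport receptors, was at 0.925, 1.06 and 1.08 CPM in p66High tumours and 22.7, 26.1 and 22 CPM in p66Low tumours (log2 fold change -4.53, SE 0.33, adjusted p = 8.82e-05). Cntnap2, a cell adhesion gene of neurons, fell by 5.10 (SE 0.45, adjusted p = 0.000151). The groups did not come near each other in any of the 3. Rbp7, a retinoid-binding protein, was at 8.07, 13.4 and 7.97 CPM in p66High tumours and 147, 69.9 and 177 CPM in p66Low tumours, and fell by 3.75 (SE 0.37, adjusted p = 0.000278). Tlx3, a homeobox gene, had 0 counts over the 3 p66High tumours and 187 counts over the 3 p66Low tumours, so that it was at least 92.7-fold lower in p66High tumours, with a floor of 3 counts over the group. Aire, known from the thymus as a regulator of self-antigens, was at 0.429, 0.141 and 0.289 CPM in p66High tumours and 4.35, 2.48 and 5.38 CPM in p66Low tumours (log2 fold change -3.78). Gipr, an incretin receptor, fell by 5.20 (adjusted p = 0.021), a call lost without any tumour but p66Low tumour 2 (up to 0.0929), and by 5.86 without p66High tumour 2. Dpysl5, a neuronal cytoskeletal regulator, fell by 3.25.

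Among abundant transcripts the changes were smaller. Map4k4, a kinase upstream of JNK, was at 646, 558 and 589.7 CPM in p66High tumours and 377, 360 and 372 CPM in p66Low tumours (log2 fold change 0.69, adjusted p = 0.00401). Its groups did not overlap. Aqp5, a water channel of secretory epithelium, fell by 1.22 (adjusted p = 0.016, lost without p66High tumour 1 or 2 or p66Low tumour 1 or 3, up to 0.0678). Ywhaz, a 14-3-3 adaptor, was at 281, 199.6 and 275 CPM in p66High tumours and 386, 359 and 372 CPM in p66Low tumours, and fell by 0.56 (adjusted p = 0.0133, or 0.0511 without p66Low tumour 1). Sf3b1, a splicing factor, rose by 0.41 (adjusted p = 0.0354), a call lost in each of the 6 fits with a tumour left out, up to 0.0905. Of non-coding genes, Dlx6os1, an antisense RNA of the Dlx6 locus, was at 10.4, 14.5 and 15.5 CPM in p66High tumours and 0.756, 2.96 and 2.31 CPM in p66Low tumours (log2 fold change 2.76, adjusted p = 0.0032). The predicted small RNA Gm23935 passed with a log2 fold change of -5.88 (adjusted p = 0.0325), which rested on 3654 CPM in p66Low tumour 2; without that tumour it was -1.53 and did not pass (adjusted p = 0.132), and the call was also lost without any p66High tumour.

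Calls were unevenly spread over the genome. On chromosome 1, 329 of 1133 tested genes rose and 17 fell, 30.5% called against 8.08% of all genes tested, and the median log2 fold change of its 752 coding genes at 1 CPM or more was 0.48. Relative to the mean of all 12 tumours of the series, the chromosome's median log2 level was 0.23, 0.23 and 0.23 in p66High tumours and -0.24, -0.23 and -0.27 in p66Low tumours. The median log2 fold change of each 5 Mb bin with genes to measure was above 0, from 0.32 to 0.74 apart from a bin of 2 genes at 3.66. On chromosome 15, 180 of 714 genes fell and 8 rose (26.3% called), with a median of -0.43. Its median level was -0.16, -0.18 and -0.12 in p66High tumours and 0.37, 0.07 and 0.29 in p66Low tumours, so p66Low tumour 2 lay closer to the p66High tumours than the other 2 did. Left out in turn, p66Low tumour 1 or 3 brought the chromosome 1 count to 216 or 202; the chromosome 15 count was 79, 113 and 84 without p66High tumours 1, 2 and 3, and 64 and 78 without p66Low tumours 1 and 3.

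A segment of chromosome 4, between 145 and 155 Mb in mm10, was chosen after the bins had been seen. In it 48 of 128 genes fell and 1 rose (38.3% called), with a median of -0.73, whereas the rest of the chromosome had 68 calls among 1180 genes (5.76%) and a median of -0.01. Eno1, Pgd and Rbp7 lie in the segment. Of the genes above that rose, Brinp3, Pigr, Wnt6, Rpe, Lmod1, Tfb2m, Sf3b1, Mdm4, Prdx6, Atf6, Acsl3, Pfkfb2, Map4k4, Col9a1, Twist2, Tfap2b, Xcl1, Idh1 and the 6 respiratory genes lie on chromosome 1, whereas Erbb4, Pkp1 and Tgfb2 lie there and fell. Of those that fell, Lalba, Sox10, Aqp5, Ywhaz, Slc11a2 and Srebf2 lie on chromosome 15, whereas Angpt1 lies there and rose. The part of the chromosome's shift in their changes was not tested. Away from chromosomes 1 and 15, 1031 genes were called. Of the 9 glycolysis genes that fell, none is on chromosome 1 or 15, but Eno1 lies in the chromosome 4 segment. The part of these shifts in the glycolysis result was not tested.

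**Figure D4:**
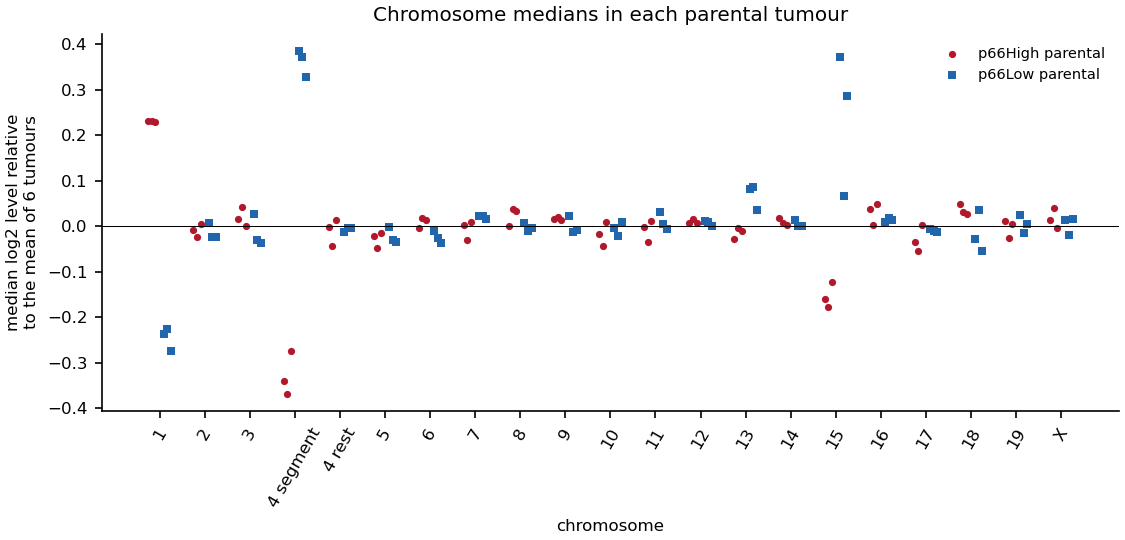
For each chromosome (horizontal), the median log2 level of its coding genes at 1 CPM or more (vertical), with a circle for each p66High and a square for each p66Low parental tumour. Levels are relative to the mean of all 12 tumours of the series, not of the 6 that the axis label names. Chromosome 1 and the chromosome 4 segment separate the groups widely, at 0.23 in each p66High tumour and -0.23 or lower in each p66Low tumour for chromosome 1. Chromosome 15 separates them less evenly, since p66Low tumour 2, at 0.07, lies closer to the p66High tumours than the other p66Low tumours do.

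The aggressive tumours give the same 2 populations after selection, in 6 other tumours. Their values do not enter the parental fold changes, but all 12 tumours share the estimate of the spread behind the p-values. In the aggressive pair 4077 genes passed (21.0%), 1728 of them higher in p66High tumours (8.92%) and 2349 lower (12.1%). Lymph node stroma markers summed to 220, 315 and 4.44 CPM in p66Low aggressive tumours 1, 2 and 3. In p66High aggressive tumours they summed to 7.21, 11.1 and 2.55 CPM. The part of this lymphoid content in the aggressive and interaction results was not tested. Of the 1565 parental genes, 596 (38.1%, or 14.6% of the aggressive calls) passed in the same direction, 111 (7.09%) passed in the opposite direction, and 530 (33.9%) differed between the pairs by the interaction term of the same fit, which 12.4% of all genes passed. The 329 chromosome 1 genes that rose largely recurred: 235 passed in the same direction (71.4%) and 35 differed by the interaction (10.6%). Of the 180 chromosome 15 genes that fell, 11 passed in the same direction (6.11%) and 79 differed by the interaction (43.9%). In the chromosome 4 segment the aggressive median was -0.80.

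Genes that separated the populations in both pairs included Brinp3, with log2 fold changes of 7.18 in parental and 9.12 in aggressive tumours, Igf2bp2 (6.06 and 4.17), Bspry (4.94 and 5.94), Ranbp17 (-4.53 and -5.52), Zfp385b (-6.79 and -4.39) and Erbb4 (-4.38 and -4.75). Hs3st3a1, which modifies heparan sulfate, and Nudt11, an inositol phosphate hydrolase, did so as well, at 2.74 and 4.12 for Hs3st3a1 and -4.02 and -7.52 for Nudt11. Glycolysis did not follow: the median over the 19 enzymes was -0.87 in parental and 0.30 in aggressive tumours, and 11 of the 19 differed by the interaction. Ldha had a log2 fold change of -1.36 in parental and -0.05 in aggressive tumours (difference -1.31, adjusted p = 0.00906). Cdkn1a had -1.70 in parental and 2.18 in aggressive tumours (difference -3.88, adjusted p = 0.00153), so its sign differed between the pairs. The sign also differed for Cldn4 (2.10 in parental, -1.12 in aggressive tumours), Pkp1 (-2.19 and 1.64), Pigr (2.76 and -1.60), Col10a1 (-1.88 and 3.21) and Sftpd (3.65 and -4.15). Reep1, a protein that shapes the endoplasmic reticulum, was at 4.85, 5.0 and 5.85 CPM in parental p66High tumours and 0.756, 2.80 and 2.05 CPM in parental p66Low tumours (log2 fold change 1.5, lost without p66High tumour 2 or 3 or p66Low tumour 3), and stood at -5.05 in aggressive tumours (difference 6.55, adjusted p = 0.000317). The acute phase list had a median of 0.54 in parental and -1.84 in aggressive tumours, and the interferon list -0.24 and -3.20.

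**Figure D5:**
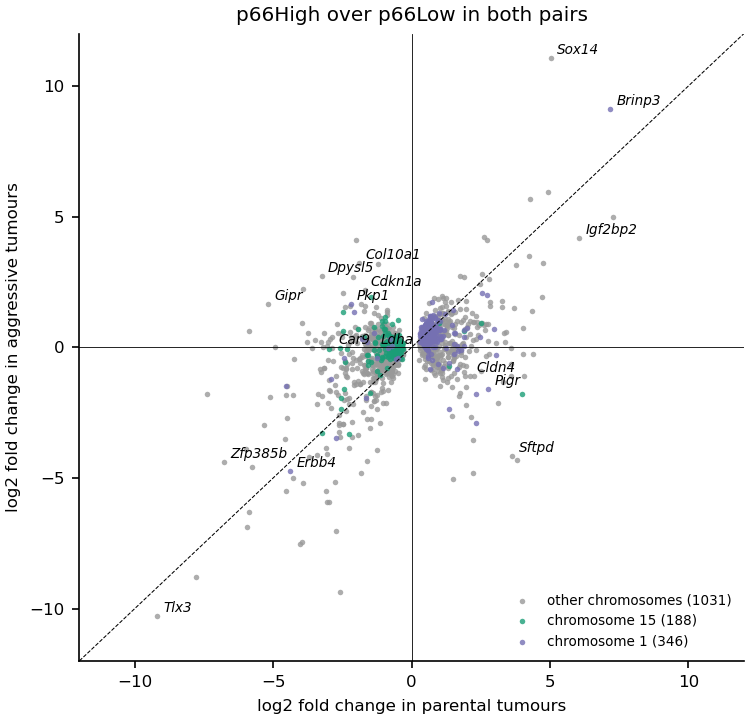
Each point is a gene called in parental tumours, with its log2 fold change (p66High over p66Low) in parental tumours (horizontal) and in aggressive tumours (vertical). The dashed line marks equal values, 305 of the 329 chromosome 1 genes that rose lie above 0 on both axes, and Cdkn1a and Cldn4 are among those whose sign differs.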

How the data were processed

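Total RNA of each bulk tumour was made into rRNA-depleted stranded libraries, per the labels' protocols. The authors deposited raw counts per Ensembl gene; per the submitters' processing notes the tools were Trimmomatic 0.32, STAR 2.3.0e and featureCounts 1.4.4 with mm10. How strand and reads with several matches were handled is not given in the sources used. Of 39017 genes, 37693 (96.6%) matched GENCODE vM21, which gave positions and biotypes. The 6 parental libraries held 25791485 to 76103880 counts, so that 3 counts, the floor used here for a count of 0, correspond to 0.0394 to 0.122 CPM; this covers counting error only.

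Counts were scaled with TMM factors and genes kept with filterByExpr in edgeR 4.0.16 (R 4.3.3). One quasi-likelihood model with 4 groups was fitted to all 12 tumours (8 residual degrees of freedom), with Benjamini-Hochberg adjustment over the 19370 genes tested and a threshold of 0.05. The contrast was p66High parental minus p66Low parental; the aggressive contrast and the difference of both (the interaction) came from the same fit. Standard errors are the log2 fold change divided by the root of F. Values by tumour are TMM-scaled CPM, and tumours are numbered in the order of the samples. Since the labels do not tie each tumour to its own mouse, the p-values measure spread among these tumours only, which may in part be technical. No 2 tumours of a group agreed within sampling noise (chi-square per degree of freedom 21.2 or more). Lists are described by counts and medians beside all genes tested, with no set test.

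Alternatives were RLE, library size and off-chromosome TMM scaling, 2 other filters, DESeq2 1.42.0, limma 3.58.1 (voom), the 6 parental tumours alone, tumours that share a title number summed, libraries with over 20 CPM of lymph node stroma markers left out, and each of the 6 tumours left out. The fit was tested on simulated data with 200 changed genes. Named genes followed a rule: Shc1 and Erbb2, the highest and lowest fold changes at 2 CPM or more without overlap, list members in order of p with further members by level, the most abundant called genes, and genes of the aggressive and interaction contrasts. Some genes the rule took are not reported here. The members and lists were chosen with earlier results of these data known.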

Additional observations from a re-analysis of the deposited data

Results flagged for a closer look

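Each gene here had a difference between its parental and its aggressive log2 fold change (p66High over p66Low, parental minus aggressive) that passed the interaction term of the edgeR fit, as 12.4% of all genes did.

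In glycolysis and its neighbours the difference was -1.31 for Ldha, -0.82 for Hk1, -0.94 for Pfkl, -1.77 for Pfkp, -1.78 for Pgk1, -1.22 for Tpi1, -2.05 for Gapdh, -0.83 for Pfkm, -1.34 for Ldhb, -1.83 for Bsg and -1.41 for Pgm2. The carbonic anhydrases Car9 and Car12 differed by -2.84 and -1.08. Differences in growth control and genome genes were -0.60 for Polrmt, -3.88 for Cdkn1a, -1.10 for Polk, -2.64 for Nrg1, -1.79 for Spry4 and -1.04 for Ccnd1. Ldhb, Pfkm and Ccnd1 had not passed in parental tumours.

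Junction and lineage genes differed by 3.22 for Cldn4, 0.95 for Cldn8, -3.84 for Pkp1, 1.69 for Cdh3, 1.81 for Twist2 and -1.01 for Tfap2b. Inflammatory genes differed by 1.62 for Cxcl1, 1.82 for Il33, 4.65 for Saa1, 4.69 for Saa2, 4.36 for Pigr and 1.36 for Cd14. For the lymphoid genes Xcl1, Ncr1 and Gzma it was 5.20, 5.25 and 4.8. Summed NK and cytotoxic markers stood at 9.31, 4.24 and 0.733 CPM in p66High aggressive tumours and at 30.7, 38.8 and 31.5 CPM in p66Low aggressive tumours, and their part in these differences was not tested.

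Signalling genes differed by 2.96 for Wif1, -1.71 for Dll4, -2.11 for Dll1, 1.21 for Jag2, 1.66 for Vegfc, 1.90 for Igf2bp2, -6.02 for Sox14 and -1.70 for Sox10. Igf2bp2, Sox14 and Wif1 were higher in p66High tumours in both pairs, with Wif1 at a log2 fold change of 1.39 in aggressive tumours. Vegfc stood at 0.02 there. Matrix, secretory and lipid genes differed by -5.10 for Col10a1, 0.73 for Dnajc3 and 1.02 for Lmod1.

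Among the genes of widest change it was 4.65 for Trpm6, 3.30 for Fermt1, 7.80 for Sftpd, 2.84 for St8sia1 and 6.55 for Reep1, and, below 0, -6.85 for Gipr, -3.21 for Cntnap2, -3.97 for Aire, -4.29 for Rbp7 and -5.97 for Dpysl5. Cntnap2 was lower in p66High tumours in both pairs. Fermt1 and St8sia1 had positive log2 fold changes in both, at 0.74 and 0.58 in aggressive tumours. Abundant and non-coding genes differed by -1.62 for Aqp5, -6.53 for Gm23935 and 2.53 for Dlx6os1.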

How the results depend on the processing

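No paired analysis was possible because the labels give the groups no shared replicate numbers. Shc1 stayed higher in p66High tumours and past the threshold under every alternative run. With DESeq2 2549 genes passed (1263 higher, 1286 lower), including 15 glycolysis and 13 hypoxia genes lower; with the 6 parental tumours alone, 15 and 19; with no filter beyond 1 count, 6 hypoxia genes. With tumours that share a title number summed, 908 passed (460 higher, 448 lower), with 1 hypoxia gene lower, 86 chromosome 15 genes lower and 394 in the same direction in aggressive tumours. Without libraries over 20 CPM of lymph node markers, 838 passed (484 higher, 354 lower), with 5 glycolysis genes lower, 203 chromosome 1 genes higher, 58 chromosome 15 genes lower and 186 in the same direction in aggressive tumours. Each of the last 2 settings leaves fewer samples, the first by merging and the second by removal, and the causes of the lower counts were not tested.

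Leaving out each parental tumour gave 871 to 1927 genes (426 to 936 higher, 439 to 991 lower), 4 to 11 glycolysis genes, 1 to 3 hypoxia genes, 202 to 332 chromosome 1 genes, 64 to 249 chromosome 15 genes and 399 to 635 genes in the same direction in aggressive tumours. Erbb2, not called in any setting, had log2 fold changes of -0.15 to 0.24 with a tumour left out; its sign turned without p66High tumour 2 (0.0225), p66High tumour 3 (0.0201) or p66Low tumour 2 (0.24), and with library size alone (0.0200), limma-voom (0.0244) or no lymph node-rich libraries (0.019).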
